A study of Pavo cristatus and Gallus gallus and Meleagris gallopavo with 54 samples.

Results

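The chicken Z chromosome (chrZ) carried 417 of the 9084 transcription start site peaks measured by cap analysis of gene expression (CAGE) in chicken embryonic fibroblasts, at 387 genes. Members were all peaks that the deposited chicken table places on chrZ, and every one of them entered the comparison of the sexes. CAGE sequences the capped 5′ ends of transcripts, so a value belongs to a start site and is given in TPM, tags scaled to a common library total. By the paper's methods a peak had to reach 10 TPM in at least one library, so weaker start sites are absent. A weak peak can thus be kept through the sex in which it is higher, with 4 female libraries against 2 male ones. Positions are those of the galGal6 assembly named by the submitters' processing notes.

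The series holds 40 CAGE libraries of fibroblasts from 7 bird species, of which 6 are chicken. Embryos were taken after about 10 days of incubation at stage HH36, the trunk was dispersed after the head, limbs, skin and organs were removed, and cells were used at passage 5. The male libraries are C11 (DMEM/F12) and C12 (DMEM high glucose), the female libraries C07 and C09 (DMEM/F12) and C08 and C10 (DMEM high glucose), all with 10% serum. The titles give C11 and C12 one preparation number, C07 and C08 a second and C09 and C10 another, each read here as 1 embryo. All male values therefore came from 1 embryo and the female values from 2, so sex and embryo cannot be told apart in these values. The p-values measure the spread between cultures, which among females includes the difference between the embryos. They hold no spread between male embryos.

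Male birds carry a pair of Z chromosomes and females a single Z with a W. Birds do not silence a whole Z chromosome as mammals silence an X, and compensation for the missing copy is known to vary from gene to gene. On the chicken Z, the male hypermethylated (MHM) region is a known exception: it is methylated in males and transcribed into noncoding RNA from the single female Z. Fibroblasts, which make and remodel connective tissue matrix, lie outside the gonad, where sex hormones are made.

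The libraries held 10878066 to 12055369 tags, so 1 tag was worth 0.0830 to 0.0919 TPM. Peaks on chrW summed to 0.55 and 0.44 TPM in the male libraries, against 2161 to 2712 TPM in the female libraries, so the labels of sex held in all 6. All 12 listed fibroblast markers had a peak, with summed levels of 36345 to 38247 TPM in males and 32122 to 37361 TPM in females. None of 8 endothelial and none of 8 blood markers had one, which leaves expression below the 10 TPM threshold unseen. A single muscle marker (ACTA1, 260 to 331 TPM in males, 76.1 to 307 TPM in females), 5 of 10 cartilage markers (551 to 736 TPM in males, 314 to 760 TPM in females) and a single epithelial marker (KRT7, 35.6 to 60.6 TPM in males, 1.88 to 88.9 TPM in females) were measured. Their part in the chrZ values was not tested.

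Male fibroblasts gave chrZ a larger share of their transcripts. The chrZ peaks held 3.77% and 3.97% of the TPM in all peaks in the male libraries C11 and C12, against 2.60%, 2.78%, 2.64% and 2.91% in the female libraries C07 to C10. Both male shares lay above all 4 female shares. The mean was 3.87% ± 0.14 (SD, n = 2) in males and 2.73% ± 0.14 (SD, n = 4) in females, a ratio of 1.42. An exact two-sided permutation test over the libraries gave p = 0.133, the smallest value that 2 libraries against 4 allow. The test treats the libraries as independent although they came from 1 male and 2 female embryos.

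Per peak, the log2 ratio of male to female values (on TPM plus a pseudocount of 1) had a median of 0.53 on chrZ, a 1.44-fold difference, with quartiles of 0.28 and 0.78, against a median of −0.01 and quartiles of −0.16 and 0.14 for 8601 autosomal peaks. Of the chrZ peaks 372 (89.2%) lay above the autosomal median, 48 had a ratio below 0, and 25 reached a log2 ratio of 1. Without the pseudocount a log2 ratio of 1 would be the ratio of the copies. With it an exact doubling falls somewhat short of 1, most so at weak peaks. Compared with the mean of the females, the median chrZ peak was 0.50 higher on the log2 scale in C11 and 0.57 higher in C12. Each female library set against the other females gave −0.10, −0.03, 0.04 and 0.08 for C07 to C10. The shift in either male library was thus far larger than the spread among the females.

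Both male values lay above all 4 female values at 281 of 417 chrZ peaks (67.4%), where 12.5% of all 9084 peaks did so, and below them at 16 (3.84%), where 12.5% of all peaks did. The moderated test of limma with adjustment over all 9084 peaks called 90 chrZ peaks (21.6%), against 2.65% of all peaks. Of these, 86 were higher in males (20.6%), against 1.39% of all peaks, and 4 lower, against 1.27% of all peaks. At an unadjusted p under 0.05 in limma, 258 were higher and 11 lower, where 432 of 8601 autosomal peaks were higher and 562 lower. The number called higher in males depended on single libraries: it was 1 without C11, 0 without C12, 13 without C08, 38 without C09, and 60 and 114 without C07 and C10. Without C11 or C12 the male arm is 1 library, assumed to vary like the females. With 1 value per embryo, 1 male was set against 2 females with the spread taken from the females alone, and none was called. Of the 4 called lower in males, 3 were called with the medium as a covariate, 1 (LOC112530614) with the embryo as a random block, and none without C08, C11 or C12 or with 1 value per embryo. The ratios, which moved much less, are therefore described first for each region and gene.

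**Figure D1:**
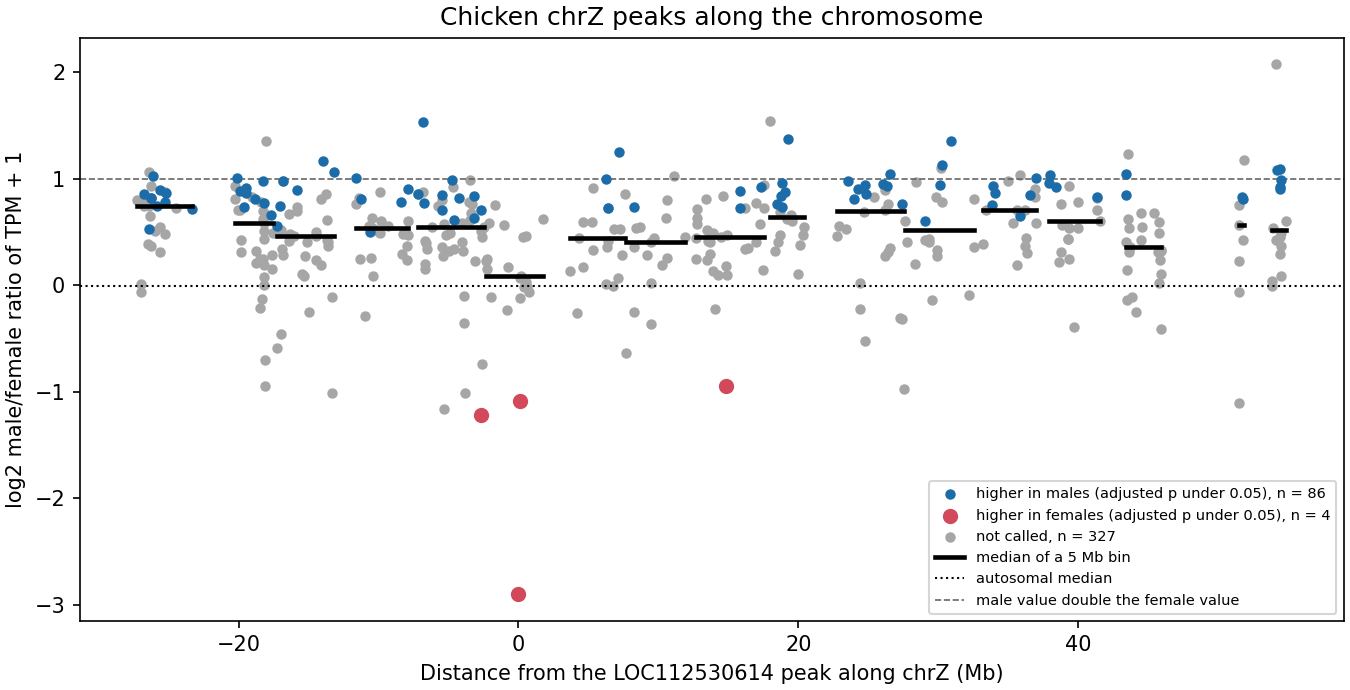
Log2 male/female ratio of each of the 417 chicken chrZ peaks (vertical axis) against its distance in Mb from the LOC112530614 peak (horizontal axis). Black bars are medians of 5 Mb bins drawn from the first to the last peak of a bin, and points are coloured by the limma call. The bin medians lie between 0.36 and 0.74 except in the bin around the LOC112530614 peak, where the median is 0.09.

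Position along chrZ was examined in 17 bins of 5 Mb, each holding 9 to 47 peaks. In 16 of the bins the median log2 ratio lay between 0.36 (70 to 75 Mb, 25 peaks) and 0.74 (0 to 5 Mb, 27 peaks). The bin from 25 to 30 Mb stood below them with 0.09 (21 peaks), a 1.06-fold difference. The next highest medians were 0.71 at 60 to 65 Mb, 0.70 at 50 to 55 Mb and 0.64 at 45 to 50 Mb, and the last bin, 80 to 85 Mb, had 0.51. No steady trend along the chromosome was seen.

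The same profile was read in each library. In the bin from 0 to 5 Mb the median peak was 0.65 and 0.77 above the female mean in C11 and C12, and the female libraries lay between −0.01 and 0.02. In the bin from 25 to 30 Mb the median peak was 0.07 and 0.21 above the female mean in C11 and C12, against −0.16, −0.04, 0.08 and 0.04 in C07 to C10. There the range of C11 overlapped that of the females. In the bin from 70 to 75 Mb C11 also fell within the female range, with 0.23 and 0.50 in C11 and C12 against −0.19 to 0.25 in the females. In the remaining 15 bins both male libraries lay above every female library.

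**Figure D2:**
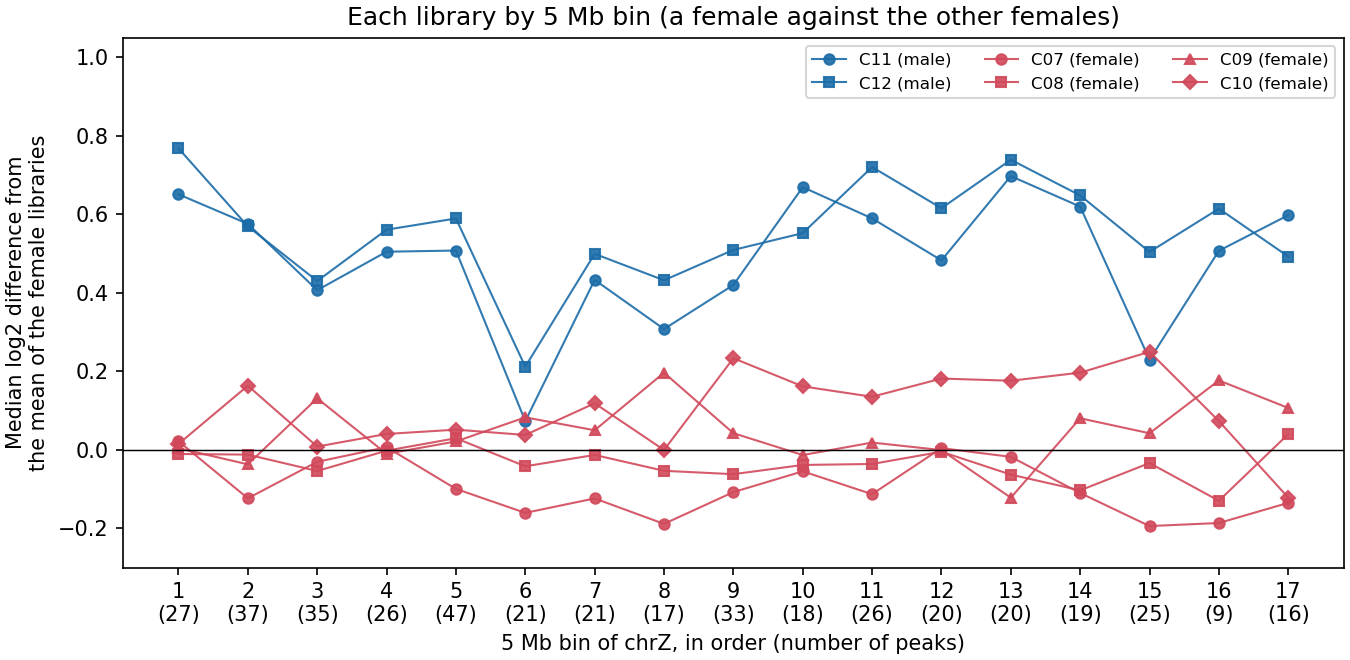
Median over the peaks of each 5 Mb bin of chrZ (horizontal axis, in order, peak numbers in brackets) of the log2 difference of a library from the mean of the female libraries (vertical axis), for C11 and C12 (male) and C07 to C10 (female, each against the other females). In bin 6, from 25 to 30 Mb, the male medians are 0.07 and 0.21.

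The area from 25 to 35 Mb, set apart from the rest, held 42 peaks at 37 genes. Its median log2 ratio was 0.26 (quartiles 0.01 and 0.58), against 0.54 (quartiles 0.31 and 0.81) for the 375 chrZ peaks outside it. The 21 peaks from 25 to 30 Mb had a median of 0.09 and the 21 peaks from 30 to 35 Mb one of 0.45. The latter belonged to 17 genes, with 3 peaks each from RPS6 (log2 ratios 0.41 to 0.73) and BNC2 (0.33 to 0.91). These genes thus weigh more in that median than genes with a single peak. By RNA-seq of 1 male and 1 female culture, which counts each gene once, the median was 0.16 in both parts. In bins of 2.5 Mb the medians were 0.15, 0.06, 0.17 and 0.53 from 25 to 35 Mb, the third of them resting on 5 peaks, so low medians reached to 32.5 Mb. From 25 to 30 Mb no peak was called higher in males by limma, although 5 were higher at an unadjusted p under 0.05, and 2 were called lower. From 30 to 35 Mb, 3 were called higher and none lower. Outside the area 83 of 375 peaks were called higher and 2 lower, and 243 were higher at an unadjusted p under 0.05. The share called in either direction was 9.52% at 25 to 30 Mb and 14.3% at 30 to 35 Mb. It was 22.7% outside the area and 2.65% over all peaks. Both male values lay above all female values at 6 of 21 peaks (28.6%) and at 10 of 21 peaks (47.6%), against 70.7% outside the area.

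To set this area against the rest within each library, the median deviation from the mean of the sexes was taken inside and outside it. That mean was formed with the labels of sex and kept when libraries were exchanged. The p-values and overlaps below are therefore descriptions. For 25 to 30 Mb, inside minus outside was −0.20 and −0.18 in C11 and C12, and 0.16, 0.13, 0.29 and 0.22 in C07 to C10. The male and female values did not overlap and differed by −0.39 (exact permutation p = 0.133, the smallest that 2 libraries against 4 allow). Libraries of the same embryo were exchanged as if independent, so this p does not cover the spread between embryos. For 30 to 35 Mb the values were −0.02 and −0.04 in the males and −0.08 to 0.04 in the females, which overlap (exact permutation p = 0.667). Over the 17 bins, males and females also did not overlap in the bins at 0 to 5, 60 to 65 and 65 to 70 Mb, where males were higher than on the rest of chrZ, and at 35 to 40 and 70 to 75 Mb, where they were lower. Their differences ran from −0.16 to 0.17 and were smaller than that of 25 to 30 Mb. After adjustment over the 17 bins no exact p was below 0.324.

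The low ratios at 25 to 30 Mb were found at low and at high levels. Among peaks with a mean level under 30 TPM the median log2 ratio was 0.09 at 25 to 30 Mb (15 peaks) and 0.52 elsewhere on chrZ (239 peaks), and among peaks of at least 30 TPM it was 0.07 (6 peaks) and 0.57 (157 peaks). The edges fall between TMEM174 (log2 ratio 0.54, outside) and FCHO2 (0.23, inside) near 25 Mb, and between SMC5 (0.86, inside) and KLF9 (−0.64, outside) near 35 Mb. With windows of 26 to 34 Mb and 24 to 36 Mb the median was 0.17 and 0.36.

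The lowest ratio on chrZ belonged to LOC112530614, a gene that the study places in the MHM locus. Its peak (chrZ 27365237 to 27365337, minus strand) lies in exon 1 of 2 of a transcript with no known protein. It is 4206 bp from the annotated start, so it may not mark that start. The peak had 0 TPM in both male libraries, against 4.76, 6.04, 10.3 and 5.72 TPM in the female libraries C07 to C10. Male and female values did not overlap, and limma called it lower in males (adjusted p = 0.0238). Only C09 reached the 10 TPM required of a peak, so this peak was kept through a female value. Its call and its lack of overlap carry that choice and are given as descriptions. A count of 0 allows up to 3 tags over both male libraries, or 0.135 TPM, so the female mean of 6.72 TPM makes the male level at least 49.7-fold lower, with counting error only. Gene-body RNA-seq of the same cultures as C12 and C08 gave 0 male and 2 female counts for this gene, too few to compare.

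The peaks nearest to it were close to equal in the sexes. Within 1 Mb lay 12 further peaks of 12 genes, with a median log2 ratio of 0.01 (quartiles −0.08 and 0.11), and 6 of them lay above the autosomal median. The 14 peaks at 1 to 3 Mb had a median of 0.48 and the 390 peaks farther away one of 0.54. The distance of 1 Mb was chosen after the values were seen. Inside minus outside these 12 peaks, the libraries gave −0.25 and −0.25 in C11 and C12, and 0.26, 0.32, 0.31 and 0.19 in C07 to C10. Here too the deviations start from a mean formed with the labels of sex. That these values do not overlap is therefore a description of peaks chosen for their low ratios, not a test.

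AK3, a mitochondrial adenylate kinase that uses GTP, starts 0.10 Mb from LOC112530614 (chrZ 27469110 to 27469234). It had 7.63 and 9.53 TPM in the males, against 18.9, 16.8, 17.7 and 24.1 TPM in the females C07 to C10. Only female values reached the 10 TPM required of a peak, so AK3 too was kept through the females. All 4 female values were above both male values (log2 ratio −1.08, SE 0.19, adjusted p = 0.0287, or 0.0526 with the embryo as a random block). Its neighbours on either side did not share this direction to that extent. CDC37L1, which encodes a co-chaperone related to CDC37, lies 0.08 Mb away and had 25.9 and 29.4 TPM in males and 24.1, 27.5, 27.5 and 26.4 TPM in females. RCL1, needed for processing of ribosomal RNA, had 31.9 and 35.6 TPM in males and 36.6, 40.02, 38.7 and 32.4 TPM in females (log2 ratio −0.12, SE 0.13). The values of the sexes overlap at both genes.

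Farther on, JAK2, the kinase of many cytokine receptors, had 19.7 and 18.6 TPM in males and 17.7, 17.3, 17.2 and 19.7 TPM in females. UHRF2, a ubiquitin ligase that binds modified DNA, had 40.1 and 40.6 TPM in males and 38.9, 36.4, 47.0 and 41.6 TPM in females. KDM4C, a histone demethylase, had 18.4 and 25.9 TPM in males and 31.1, 24.3, 17.9 and 20.2 TPM in females. At these genes the ranges of males and females overlap. VLDLR, a lipoprotein receptor, lies 0.81 Mb to the other side with 10.4 and 14.4 TPM in males and 11.8, 17.2, 14.5 and 15.1 TPM in females (log2 ratio −0.23, SE 0.20). Of the 12 peaks only those of LOC112530672 and LOC107052267 had both male values above all female values, with log2 ratios of 0.45 and 0.47 and adjusted p-values of 0.331 and 0.421.

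The most active promoters between 25 and 35 Mb varied more. RPS6, a protein of the small ribosomal subunit, had its main peak at chrZ 33740841 to 33740988 with 1653 and 1452 TPM in males, against 930, 931, 1001 and 892 TPM in females (log2 ratio 0.72, SE 0.11, adjusted p = 0.0174). TNPO1, a nuclear import receptor, had 91.2 and 99.5 TPM in males and 74.3, 72.1, 105 and 96.4 TPM in females, which overlap. SMARCA2, a chromatin remodelling ATPase, had 103 and 100.2 TPM in males and 62.9, 54.1, 71.5 and 90.2 TPM in females, with no overlap (log2 ratio 0.56, adjusted p = 0.214). MAP1B, a microtubule protein, had 39.1 and 65.9 TPM in males and 43.7, 61.9, 54.8 and 61.4 TPM in females. PSIP1, a chromatin protein, had 50.1 and 62.3 TPM in males and 43.5, 52.5, 54.8 and 47.7 TPM in females. The sexes overlap at MAP1B and PSIP1.

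Among the genes called higher in males in the second part of the area, HAUS6, a subunit of the augmin complex of the mitotic spindle, had 23.1 and 23.5 TPM in males, against 9.69, 10.1, 13.3 and 12.1 TPM in females (log2 ratio 0.99, SE 0.17, adjusted p = 0.0287). Both male values were well above every female value.

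The median chrZ ratio, not set against autosomes, differed little between levels of expression. From peaks with a mean level under 10 TPM to those of 300 TPM or more, the median log2 ratio was 0.50 (43 peaks), 0.49 (211 peaks at 10 to 30 TPM), 0.56 (109 peaks at 30 to 100 TPM), 0.58 (41 peaks at 100 to 300 TPM) and 0.55 (13 peaks). Autosomal peaks of the same classes had −0.14, 0.00, 0.00, −0.01 and 0.00. Of the 874 autosomal peaks under 10 TPM, 181 had both male values below all female values and 67 above them. The lowest class was thus not balanced between the sexes on autosomes, and its chrZ median stood farthest from the autosomal one. Across the 417 peaks, level and ratio had a Spearman correlation of 0.09, as a description, since all points share the 6 libraries. Calls depended on level more than ratios did. No chrZ peak under 10 TPM was called higher in males by limma, against 34 of 211 at 10 to 30 TPM, 34 of 109 at 30 to 100 TPM, 14 of 41 at 100 to 300 TPM and 4 of 13 at 300 TPM or more. Among autosomal peaks of the same classes 0 of 874, 16 of 3420, 14 of 2901, 9 of 950 and 1 of 456 were called higher.

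**Figure D3:**
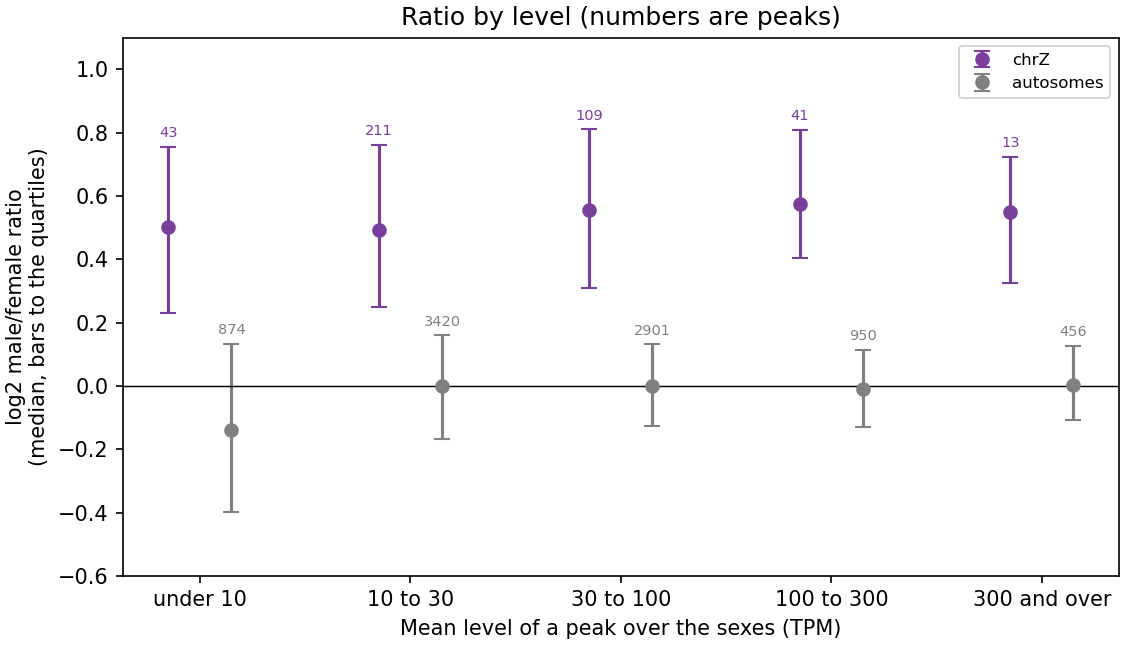
Median log2 male/female ratio (points) with its quartiles (bars) for chrZ and for autosomal peaks, by mean level in TPM (horizontal axis); numbers are peaks. The chrZ medians stay between 0.49 and 0.58 in every class.

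The chrZ peaks of highest level show how far single genes depart from that median. TXN, the thioredoxin that reduces disulfides, led with 3909 and 4332 TPM in males, against 2421, 2920, 2525 and 3625 TPM in females. The groups do not overlap (log2 ratio 0.54, SE 0.17, adjusted p = 0.185). TPM2, a tropomyosin of actin filaments, had 1577 and 1584 TPM in males, against 909, 934, 955 and 917 TPM in females (log2 ratio 0.77, SE 0.10, adjusted p = 0.00726). The log2 ratios of the 3 TPM2 peaks ran from 0.08 to 0.77. RPL37, of the large ribosomal subunit, had 1347 and 1035 TPM in males and 1071, 963, 869 and 1134 TPM in females, which overlap (log2 ratio 0.23, SE 0.15). LOX, the lysyl oxidase that cross-links collagen and elastin, had 1350 TPM in both males and 1551, 1461, 1345 and 971 TPM in females. The female values of LOX enclose the male ones.

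Genes were next ranked by ratio among the 374 peaks whose male and female means averaged at least 10 TPM, so the size of the difference in the genes named from here on is what chose them. The 10 largest ratios ran from 1.17 to 2.07 on the log2 scale, and those described here belonged to SNX24, CHSY3, ADAMTS6, STARD4, MRPL17, FAM172A, XPA, GRAMD3 and GHR. The 10 were spread over the chromosome from 9.30 to 81.5 Mb. At all 10 both male values were above all 4 female values, and 5 of the 10 were called by limma.

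Some of these large ratios were uneven among the females. SNX24, a sorting nexin of endosomes (chrZ 81496671 to 81496767), had 17.6 and 21.97 TPM in males, against 10.4 and 11.6 TPM in C07 and C08 and 0.87 and 1.16 TPM in C09 and C10. The 2 females of one preparation lay near 1 TPM and those of the other near 11 TPM, so its ratio of 2.07 has an SE of 0.82 and an adjusted p of 0.304. XPA, which recognises damaged DNA in excision repair, had 128 and 111 TPM in males, against 33.8 and 35.2 TPM in C07 and C08 and 78.7 and 67.9 TPM in C09 and C10. This stronger XPA peak had a log2 ratio of 1.23 and a weaker one 0.62. MRPL17, a mitochondrial ribosomal protein, had 173 and 188 TPM in males, against 91.5 and 98.8 TPM in C07 and C08 and 57.4 and 45.7 TPM in C09 and C10. In these genes the female preparations differed from each other in opposite directions.

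FAM172A (chrZ 58296340 to 58296512) had 59.6 and 63.7 TPM in males, against 20.7, 20.7, 25.99 and 27.9 TPM in females (log2 ratio 1.35, SE 0.16, adjusted p = 0.00467). ADAMTS6, a secreted metalloprotease, had 35.1 and 46.1 TPM in males, against 9.78, 13.2, 10.9 and 22.1 TPM in females (log2 ratio 1.53, SE 0.30, adjusted p = 0.0406). GHR, the growth hormone receptor, had 26.8 and 35.7 TPM in males, against 17.1, 11.3, 14.3 and 11.03 TPM in females (log2 ratio 1.17, SE 0.21, adjusted p = 0.0330). Its peak is classed by the files as distal intergenic.

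STARD4, a cholesterol carrier, differed between the male cultures, with 93.4 TPM in C11 and 178 TPM in C12, against 38.8, 63.0, 49.0 and 48.6 TPM in females (log2 ratio 1.37, SE 0.27, adjusted p = 0.0406). CHSY3, a chondroitin sulfate synthase, had 34.01 and 33.97 TPM in males, against 6.19, 9.20, 13.7 and 18.5 TPM in females (log2 ratio 1.54, adjusted p = 0.0714). GRAMD3 had 29.97 and 27.3 TPM in males, against 18.6, 13.05, 9.82 and 8.96 TPM in females (log2 ratio 1.17, adjusted p = 0.0680).

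The 3 smallest adjusted p-values belonged to peaks with log2 ratios nearer to 1, and FAM172A, described above, came next. TOMM5, a subunit of the channel that imports proteins into mitochondria, had 324 and 310 TPM in males, against 144, 166, 151 and 135 TPM in females (adjusted p = 0.00308). BRIX1, of ribosome assembly, had 134 and 142 TPM in males, against 66.6, 75.8, 66.7 and 70.0 TPM in females (log2 ratio 0.98). FAM174A had 105 and 116 TPM in males, against 53.3, 58.1, 53.2 and 58.1 TPM in females (log2 ratio 0.98). In each of these genes the gap between the lowest male and the highest female value was wider than the range of the females.

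Besides LOC112530614 and AK3, the peaks called lower in males were those of ARHGEF28 and HABP4, neither of which was called with the embryo as a random block (adjusted p = 0.0638 and 0.0579). ARHGEF28, a guanine nucleotide exchange factor (chrZ 24702189 to 24702363), had 5.33 and 3.79 TPM in males, against 10.9, 13.1, 9.91 and 13.4 TPM in females (log2 ratio −1.21, SE 0.23, adjusted p = 0.0362). Within 0.1 Mb of it UTP15, ANKRA2 and BTF3 had log2 ratios of 0.51, 0.71 and 0.45, while FOXD1, a forkhead transcription factor, had −0.74 (adjusted p = 0.0787). HABP4, which binds RNA and hyaluronan (chrZ 42191268 to 42191519), had 13.5 TPM in both males, against 25.8, 32.1, 21.7 and 29.4 TPM in females (log2 ratio −0.95, SE 0.17, adjusted p = 0.0330). At both genes male and female values do not overlap, but ARHGEF28 reached the 10 TPM required of a peak only in females.

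Of the other low ratios, THBS4, a thrombospondin of the matrix, had 21.7 and 25.1 TPM in males, against 51.6, 54.4, 107 and 27.1 TPM in females (log2 ratio −1.16, SE 0.44, adjusted p = 0.268). IQGAP2, a scaffold protein, had 8.09 and 11.4 TPM in males, against 39.4 and 27.8 TPM in C07 and C08 and 9.82 and 15.7 TPM in C09 and C10. MYO3AL, named for a class III myosin, had 8.46 and 9.88 TPM in males, against 9.15 and 13.5 TPM in C07 and C08 and 26.9 and 34.9 TPM in C09 and C10. IQGAP2 and MYO3AL overlap between the sexes and were high in one female preparation each.

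The most even peaks were taken as those whose 95% interval of the log2 ratio stayed closest to 0, since a missed threshold alone does not show equality. These 10 peaks had intervals within −0.42 and 0.39. That each interval lies below a doubling in males follows from this choice, so it is a description and not a test of equality. The intervals hold no spread between male embryos. NARS, the asparaginyl-tRNA synthetase (chrZ 366919 to 367070), had 80.2 and 84.4 TPM in males and 75.03, 84.4, 78.1 and 90.7 TPM in females (log2 ratio 0.01, 95% interval −0.27 to 0.28). FECH, which inserts iron to form haem, starts 14 kb away and had 16.7 and 19.8 TPM in males and 18.6, 19.3, 18.5 and 19.99 TPM in females. This even pair lay in the bin with the highest median ratio of the chromosome.

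Of the 10 most even peaks 4 lay within 1 Mb of LOC112530614, namely those of CDC37L1, JAK2, ERMP1 and UHRF2. Elsewhere, OSTF1, a signalling protein of osteoclasts, had 52.5 and 52.2 TPM in males and 44.3, 48.9, 51.8 and 62.7 TPM in females. SHB, an adaptor of tyrosine kinases, had 21.1 and 24.8 TPM in males and 20.8, 20.1, 23.4 and 26.2 TPM in females. RFKL, named for a riboflavin kinase, had 27.2 and 32.1 TPM in males and 27.1, 30.4, 26.5 and 29.03 TPM in females. A second, weaker LOX peak was even as well, with 41.7 and 48.3 TPM in males and 55.2, 45.9, 39.6 and 41.4 TPM in females. In all of them the groups overlap.

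**Figure D4:**
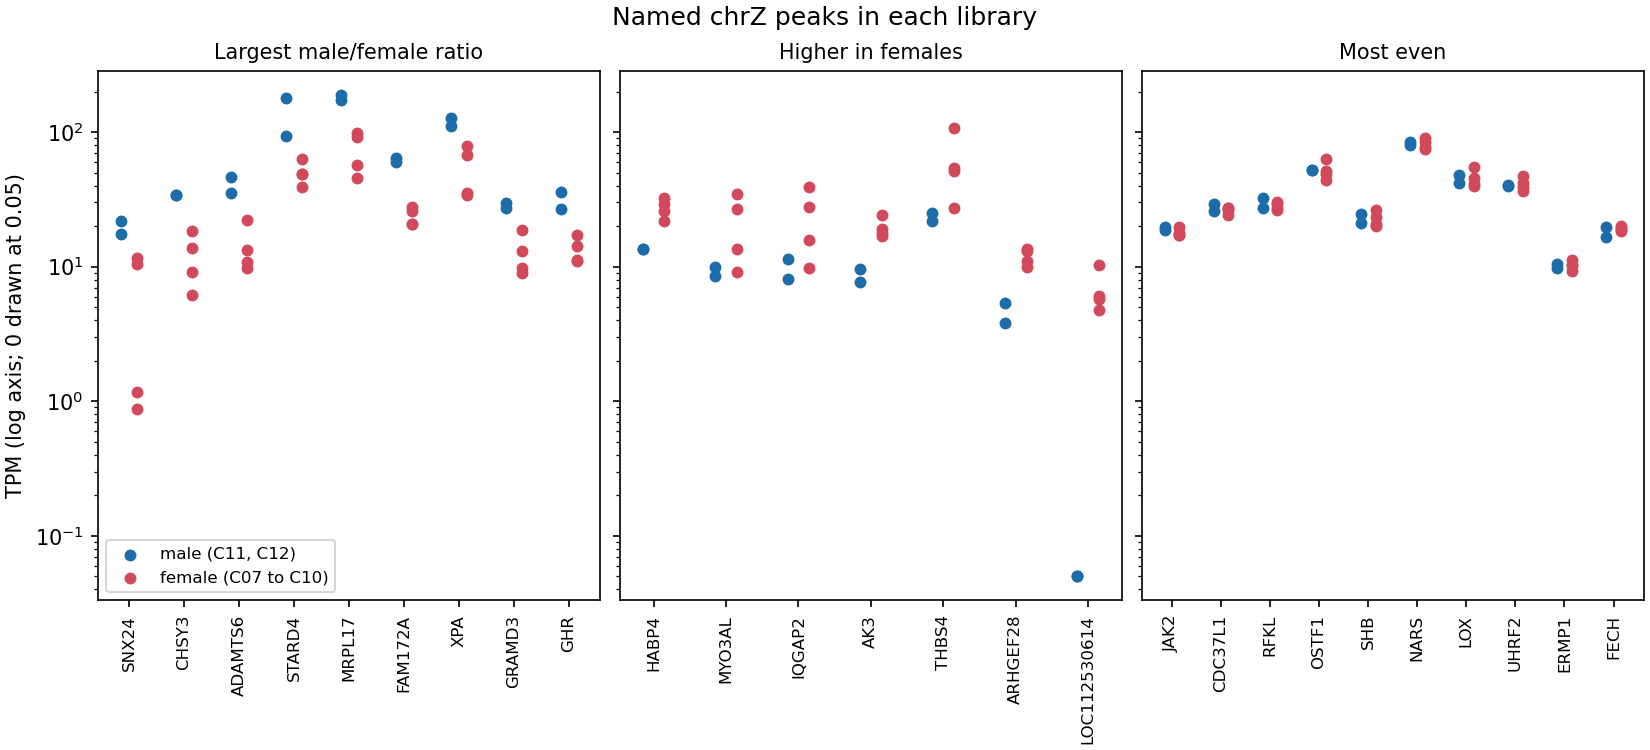
TPM (log axis, 0 drawn at 0.05) of the named chrZ peaks in the male libraries C11 and C12 (left of each pair) and in the female libraries C07 to C10 (right), for 9 of the 10 largest male/female ratios, the peaks higher in females and the 10 most even. LOC112530614 is at 0 TPM in both males and at 4.76 to 10.3 TPM in the females.

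Gene groups of chrZ are chosen lists and do not hold every gene of their kind. Their counts were set beside those of all 387 chrZ genes. Of these, 84 (21.7%) had a peak called higher in males and 4 one called lower. The median log2 ratio of the 387 genes was 0.53, and 343 of them lay above 0. Of 29 listed genes of mitochondrial proteins, 21 had a chrZ peak. Of these 21, 11 were called higher in males and 1, AK3, lower, with a median of 0.77 and a range of −1.08 to 1.25. The list leaves out MRPL17, described above, which limma did not call (adjusted p = 0.0609). The 11 include TRMT10B, whose listing as mitochondrial is uncertain, so these counts depend on the genes listed. COX7C, a subunit of cytochrome c oxidase, had 626 and 654 TPM in males, against 349, 328, 312 and 428 TPM in females (adjusted p = 0.0246). NDUFS4, of complex I, had 99.5 and 106 TPM in males, against 62.8, 53.5, 57.4 and 59.3 TPM in females (adjusted p = 0.0130). MRPL50, of the mitochondrial ribosome, had 59.1 and 63.6 TPM in males, against 29.8, 27.1, 26.7 and 35.3 TPM in females (adjusted p = 0.0124). A peak assigned to ACO1, an aconitase that is also a cytosolic sensor of iron, had 25.004 and 25.7 TPM in males and 31.3, 27.1, 35.98 and 27.5 TPM in females (log2 ratio −0.25, adjusted p = 0.534). That peak is 6 bp wide, annotated as distal intergenic and 337367 bp from the annotated start, so it may not reflect the ACO1 promoter.

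Of 24 genes of the cell cycle and DNA repair, 4 (CDK7, CCNH, HAUS6 and APTX) were called higher in males and none lower, with a median of 0.82 and a range of −1.10 to 1.23. The lowest was CDKN2B, an inhibitor of the cell cycle, with 4.04 and 4.77 TPM in males, 3.77 and 7.97 TPM in C07 and C08, and 15.7 and 23.97 TPM in C09 and C10 (adjusted p = 0.475). CDK7 and its cyclin partner CCNH, which activate other cyclin-dependent kinases, lie far apart on chrZ, at 21.9 and 61.2 Mb. CDK7 had 43.7 and 48.8 TPM in males, against 25.8, 23.8, 25.5 and 25.8 TPM in females, and CCNH had 35.2 and 35.3 TPM in males, against 20.5, 18.6, 19.9 and 23.7 TPM in females. The log2 ratios of the pair were 0.85 and 0.75.

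CDKN2A, another such inhibitor, was likewise split between the female preparations, with 44.8 and 53.5 TPM in males, 18.1 and 32.6 TPM in C07 and C08, and 96.3 and 118 TPM in C09 and C10. These values are from the strongest of 3 CDKN2A peaks, whose log2 ratios of male to female ran from −0.06 to 0.56. That strongest peak was among 4 chrZ peaks (0.96%, against 0.594% of all peaks) that limma called different between the female preparations (adjusted p = 0.0437). The others were XPA, CDO1 of cysteine breakdown and CZH18ORF32. CDO1 had 32.5 and 26.9 TPM in males, 13.6 and 16.2 TPM in C07 and C08, and 59.4 and 53.1 TPM in C09 and C10. For CDKN2A and CDO1 the male values lay between those of the female preparations.

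Of 12 matrix genes with a chrZ peak, ADAMTS6 and ADAMTS12 were called higher in males and none lower, and the log2 ratios ran from −1.16 (THBS4) to 1.53 (ADAMTS6) with a median of 0.52. ADAMTS12, a metalloprotease of the same family, had 82.1 and 81.7 TPM in males, against 49.6, 48.3, 49.4 and 47.4 TPM in females (log2 ratio 0.74, SE 0.10, adjusted p = 0.0124). VCAN, the proteoglycan versican, had 194 and 164 TPM in males and 144, 145, 145 and 197 TPM in females at its stronger peak, which overlap. The log2 ratio was 0.19 there and 0.70 at its weaker peak. PAM, which amidates secreted peptides, had 355 and 369 TPM in males, against 260, 256, 215 and 258 TPM in females (adjusted p = 0.0565).

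Receptors of growth factors and cytokines had a median of 0.50 over 11 genes, with GHR alone called. IL6ST, the shared gp130 subunit of the interleukin-6 family, had 161 and 169 TPM in males, against 119, 114, 94.6 and 132 TPM in females (log2 ratio 0.53, adjusted p = 0.118). Its partner LIFR had 20.96 and 13.9 TPM in males and 15.7, 14.3, 16.9 and 17.8 TPM in females (log2 ratio 0.08). Of 13 transcription regulators only SMAD7, an inhibitor of TGF-β signalling, was called, with 46.3 and 67.6 TPM in males, against 31.3, 27.2, 27.7 and 22.8 TPM in females (adjusted p = 0.0330), and the median was 0.39. KLF9, a zinc finger factor just past the 25 to 35 Mb area, had 27.6 and 17.4 TPM in males, against 34.1, 38.4, 36.8 and 29.9 TPM in females (log2 ratio −0.64, adjusted p = 0.158).

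Of 14 genes of protein folding and ubiquitin, VCP, RNF20 and KCMF1 were called higher in males, and the median was 0.49. All 14 had a ratio above 0, as did 343 of all 387 chrZ genes. VCP, an ATPase that extracts ubiquitylated proteins, had 137 and 146 TPM in males, against 69.4, 82.8, 87.7 and 81.9 TPM in females (adjusted p = 0.0200). HMGCS1, a synthase of the sterol pathway, had 142 TPM in C11 and 280 TPM in C12, against 132, 164, 181 and 124 TPM in females, which overlap. None of 4 listed genes of the DMRT cluster, which holds the testis factor DMRT1, had a peak in these fibroblasts. Expression below the 10 TPM threshold would not be seen.

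Genes known to keep a copy on chrW form a group of their own, since a female transcribes the W copy besides the Z copy. Of 19 such genes with a chrZ peak, 9 were called higher in males and none lower, and the median was 0.81. All 19 had a Z ratio above 0, as did 343 of all 387 chrZ genes. CHD1Z, a chromatin remodeller used to sex birds, had 42.4 and 48.2 TPM in males, against 25.4, 23.2, 28.7 and 24.5 TPM in females (log2 ratio 0.81, adjusted p = 0.0238). ATP5A1Z, a subunit of ATP synthase, had 312 and 309 TPM in males, against 165, 189, 177 and 150 TPM in females (log2 ratio 0.87, adjusted p = 0.0130). SPIN1Z, a reader of histone methylation, had 88.6 and 89.0 TPM in males, against 41.1, 46.9, 48.8 and 55.6 TPM in females (log2 ratio 0.88, adjusted p = 0.0200). BTF3 had 310 and 278 TPM in males, against 211, 221, 204 and 221 TPM in females (log2 ratio 0.45, adjusted p = 0.0715). Where a W copy is nearly identical, tags of the copies can be assigned to the wrong chromosome, and these values are uncertain to that extent.

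The RNA-seq of 1 male and 1 female culture, the cultures of C12 and C08, gave whole-gene values without replicates. The median log2 ratio of FPKM was 0.55 over 371 chrZ genes (quartiles 0.24 and 0.81), against 0.00 over 7449 autosomal genes. It was 0.16 over 17 genes at 25 to 30 Mb, 0.16 over 17 genes at 30 to 35 Mb and 0.57 over 337 genes outside. Within 1 Mb of LOC112530614 the 10 genes measured had a median of −0.12. Per gene, the RNA-seq and CAGE ratios had a Pearson correlation of 0.83 over the 371 genes, as a description, since genes are not replicates and the cultures are shared. The 10 genes of largest CAGE ratio had RNA-seq ratios of 0.69 to 1.43, and the 10 most even peaks belonged to genes with ratios of −0.29 to 0.21. AK3, HABP4 and ARHGEF28 had RNA-seq ratios of −1.55, −1.32 and −1.17.

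**Figure D5:**
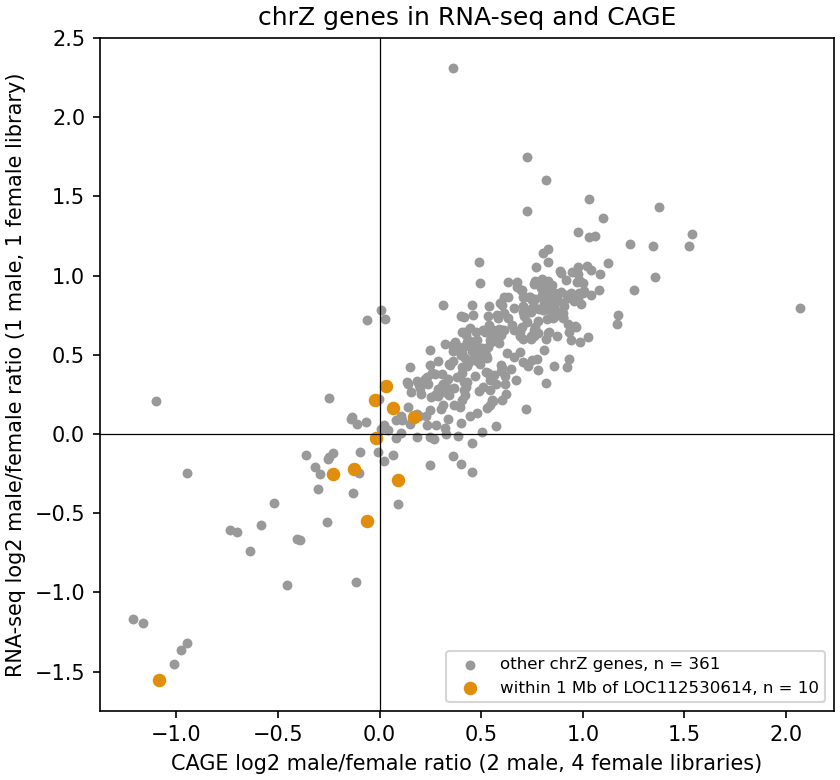
RNA-seq log2 male/female ratio of FPKM (vertical axis, 1 male and 1 female library) against the CAGE log2 ratio (horizontal axis, 2 male and 4 female libraries) of 371 chrZ genes. Of the 10 genes within 1 Mb of LOC112530614, AK3 lies at −1.08 by CAGE and −1.55 by RNA-seq, and the others between −0.23 and 0.17 by CAGE and between −0.55 and 0.30 by RNA-seq.

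Genes of the same name on the Z chromosome of quail (2 male and 4 female libraries) and duck (4 male and 2 female libraries) were set beside these values, as descriptions from tables normalized separately. By their titles these are 1 male and 2 female preparations of quail and 2 male and 1 female preparations of duck, so sex and preparation cannot be told apart there either. Over 270 matched genes of quail and 242 of duck the median log2 male to female ratio was 0.63 and 0.67, where autosomal peaks had 0.09 and 0.12. Of these matched genes 243 lay above 0 in quail and 227 in duck. The genes that lie at 25 to 30 Mb in chicken had medians of 0.50 in quail (13 genes) and 0.57 in duck (13 genes). Those within 1 Mb of LOC112530614 had 0.52 in quail (8 genes, all above 0) and 0.18 in duck (7 genes, 5 above 0). The difference between the species was not tested.

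Single genes followed no one rule. AK3 had 26.5 TPM in male and 24.7 TPM in female quail, and 21.7 TPM in male and 43.4 TPM in female duck. HABP4, low in male chicken, had 50.4 TPM in male and 5.67 TPM in female duck. LOX, even in chicken, had 1770 TPM in male and 2190 TPM in female quail and 412 TPM in male and 448 TPM in female duck, with log2 ratios of −0.19 and −0.15. Most matched chrZ genes lay above 0 in any case, 243 of 270 in quail and 227 of 242 in duck. The genes of the 10 largest chicken ratios had medians of 1.08 in quail (9 matched, all above 0) and 0.94 in duck (8 matched, 7 above 0). The 84 genes called higher in male chicken had medians of 0.90 in quail (62 matched, 60 above 0) and 0.76 in duck (56 matched, 54 above 0), and the 10 most even chicken peaks 0.44 (7 matched genes) and 0.12 (6 matched genes).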

How the data were processed

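CAGE libraries of 6 chicken fibroblast cultures were analysed. The deposited TPM values are tags scaled to the library total by the authors (a unit also written RPM), who per the labels and methods trimmed reads, aligned them with BWA 0.7.10-r789 and HISAT2 2.1.0 to galGal6, clustered 5′ tags into peaks and annotated these with ChIPseeker 1.32.0. Every value (100%) lay within 0.05 tag of a whole tag. The RNA-seq counts (80429399 male and 117340554 female) were made by the authors with HTSeq 2.0.1, and the deposited FPKM were used for ratios with a pseudocount of 0.1 over genes with a mean FPKM of at least 1.

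The sexes were compared on log2(TPM + 1), male minus female, over all 9084 peaks, with limma 3.58.1 (mean-variance trend) in R 4.3.3 and Benjamini-Hochberg adjustment at 0.05. On simulated chicken data, 80.0% of 200 peaks altered by a log2 of 1 were called, with 6 false calls. Simulated libraries varied independently, with nothing shared within an embryo, so these figures do not cover the design of 1 male and 2 female embryos. Regions were compared per library with exact two-sided permutation tests, which treated libraries of the same embryo as independent. Alternatives were TMM scaling, centring on the autosomal median, pseudocounts of 0.1 and 5, a 6-library mean of at least 10 TPM, peaks summed per gene, a covariate for medium, embryos averaged or as a random block, each library left out and other windows. The region tests and the interaction of sex and medium were chosen after seeing the data.

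The members, the 10 gene lists and the rule for naming genes were chosen with earlier results of these data known. Named were, among chrZ peaks, the 10 largest ratios at a mean of at least 10 TPM and the 5 smallest adjusted p-values, every peak called lower in males and the 5 lowest ratios, the 10 whose 95% interval stayed closest to 0, the called and 5 most active peaks at 25 to 35 Mb, the 5 most active of chrZ, and list members (called, and up to 4 more by level). CDKN2B, CDO1, CZH18ORF32, TMEM174, FCHO2, SMC5, FOXD1, UTP15, ANKRA2 and the genes within 1 Mb of LOC112530614 were named after their values were seen. Some genes the rule selects are given only as counts or are not reported here. Peaks of the medium comparison (0 of 9084 called by limma, 1050 at an unadjusted p under 0.05) are not described.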

Additional observations from a re-analysis of the deposited data

Results flagged for a closer look

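Among the 92 named chrZ peaks, 3 had 1 female library standing apart from the other 3 females by Dixon's ratio, where chance marks about 1 in 20 groups. VCAN had 197 TPM in C10, against 144 to 145 TPM in the other females. PAM had 215 TPM in C09, against 256 to 260 TPM in the others. NNT, the mitochondrial nicotinamide nucleotide transhydrogenase, had 20.1 TPM in C10, against 24.8 to 25.6 TPM in the others, and 30.7 and 31.4 TPM in the males. Male groups of 2 libraries were not examined in this way. No chrZ peak passed the test of an interaction between sex and medium in limma, and 3 had an unadjusted p under 0.05.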

How the results depend on the processing

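None of the 38 named peaks called in the report changed direction under the alternatives run. The 86 peaks called higher and 4 called lower in males changed with the model of the cultures: 54 and 3 with the medium as a covariate, 42 and 1 with the embryo as a random block, and 0 and 0 with 1 value per embryo, where the male arm is 1 sample. Leaving out each library gave 0 to 114 higher and 0 to 5 lower, and the median chrZ ratio stayed between 0.50 and 0.57. With a 6-library mean of at least 10 TPM 83 were called higher and 2 lower, since the test then held 364 chrZ peaks. Of the 38, 37 remained called under TMM scaling, 22 with the random block and none with 1 value per embryo. A pseudocount of 5 lowered the median ratio to 0.44 on chrZ and 0.46 outside 25 to 35 Mb. In that area the median was 0.36 with a window of 24 to 36 Mb and 0.16 in RNA-seq. Against the female preparation of C07 and C08 alone the chrZ median was 0.57, against that of C09 and C10 0.48, in DMEM/F12 alone 0.52 and in DMEM high glucose alone 0.56. The cause of these changes was not tested. A test on recovered tag counts was not run, and the use of all peaks changed nothing because every peak of the table is of the promoter class.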
